A study of Sus scrofa with 12 samples.

Results

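The enzymes that write and erase N6-methyladenosine (m6A) are themselves made from mRNAs that can carry m6A. The 10 genes described here are METTL3, METTL14, WTAP, VIRMA, RBM15, RBM15B, ZC3H13 and CBLL1, which encode subunits of the m6A methyltransferase complex, and FTO and ALKBH5, which encode the demethylases. They were chosen by name, and every m6A peak that lay on an exon of their mRNAs, on the strand of the gene, was taken. All 10 had a peak in at least 1 sample. They are 10 of 20648 genes with an mRNA in the RefSeq annotation of the pig genome, of which 11701 had a peak in any sample.

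m6A was mapped by methylated RNA immunoprecipitation sequencing (MeRIP-seq) in spermatozoa of 3 Duroc boars. Each ejaculate was split. A portion went straight into liquid nitrogen, to be kept for RNA extraction, and stands for fresh sperm (Fs). The other portion was cooled, diluted in a lactose and hen's egg yolk extender, diluted again in that extender with glycerol, frozen in straws and thawed, and stands for frozen-thawed sperm (Fts). All sperm pellets were washed and treated with a detergent to remove somatic cells, and all RNA was depleted of ribosomal RNA, broken into short fragments and pulled down with an antibody against m6A. Each group had 3 immunoprecipitated (IP) samples with a peak list and 3 input samples. The labels number the samples of each group from 1 to 3. They do not say that a number stands for the same boar in both groups, or whether ejaculates were pooled. The p-values given below therefore compare these samples only and do not extend to boars in general.

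A peak is a stretch where the IP reads of a sample exceed its input reads. Its score is 10 times the −log10 of the p-value of the peak caller, so that a score of 20 stands for p 0.01 and a score of 50 for p 1e-05. The lists hold only peaks with a score of at least 3.02, which on this scale is p 0.499, so that low scores stand for little enrichment over input. A gene without a peak may therefore carry m6A below that limit, or have too few reads to tell. The lists held between 8015 and 10378 peaks in the Fs samples and between 9682 and 11982 in the Fts samples. They do not carry read depth, which the study's supplement gives for whole libraries. There, counts of aligned IP reads lay lower in Fts than in Fs, without overlap. For input, Fts1 and Fts2 lay below all Fs samples, and Fts3 lay within their range. The share of reads that aligned was lower in Fts for both IP and input. The part of these library differences in the peak numbers and scores was not tested. A peak reflects the enrichment of IP over input and not the amount of an mRNA.

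METTL3 is the catalytic subunit of the writer complex, and METTL14 holds the substrate RNA and stabilises METTL3. WTAP keeps this pair in nuclear speckles, VIRMA (also known as KIAA1429) is a scaffold that directs the choice of sites along the mRNA, ZC3H13 anchors the complex in the nucleus, and CBLL1 (HAKAI) is a RING finger protein bound to the complex. RBM15 and RBM15B bind RNA and bring the complex to its targets. FTO and ALKBH5 are oxygenases that remove the methyl group, and male mice that lack Alkbh5 have impaired fertility. Germ cells of the mouse need Mettl3 and Mettl14 to complete spermatogenesis, and mature sperm transcribe little, so their mRNAs are largely those left from spermatid stages.

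The following stretches of coding sequence are shown because peaks recurred there in at least 5 samples. They are printed 5′ to 3′ on the strand of the mRNA, at most 300 bases each from the centre of the coding part of the region. Capitals mark GGACT, a frequent form of the m6A consensus. ZC3H13 exon 11 (chr11:21360159-21360350) is a whole exon, and the others are the middle of ZC3H13 exon 10 (chr11:21354366-21354665) and CBLL1 exon 6 (chr9:107471212-107471511). All are on the plus strand of Sscrofa11.1, with exons counted in the longest coding transcript of RefSeq.
ZC3H13 exon 10: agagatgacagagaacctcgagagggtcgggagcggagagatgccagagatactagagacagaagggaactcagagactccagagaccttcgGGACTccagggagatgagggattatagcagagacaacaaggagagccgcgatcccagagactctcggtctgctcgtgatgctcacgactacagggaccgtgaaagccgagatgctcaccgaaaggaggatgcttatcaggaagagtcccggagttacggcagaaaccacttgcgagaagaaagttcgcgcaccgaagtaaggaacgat
ZC3H13 exon 11: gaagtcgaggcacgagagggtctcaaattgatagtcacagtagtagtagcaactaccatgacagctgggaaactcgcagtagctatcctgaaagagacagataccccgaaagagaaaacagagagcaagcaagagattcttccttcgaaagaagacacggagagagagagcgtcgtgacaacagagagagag
CBLL1 exon 6: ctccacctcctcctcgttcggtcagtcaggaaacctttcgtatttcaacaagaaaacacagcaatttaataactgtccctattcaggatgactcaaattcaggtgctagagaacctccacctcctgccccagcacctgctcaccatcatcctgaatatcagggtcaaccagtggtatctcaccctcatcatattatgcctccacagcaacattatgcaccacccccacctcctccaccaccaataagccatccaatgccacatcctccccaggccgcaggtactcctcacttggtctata

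Of these 3 stretches, a GGACT was present in 1, ZC3H13 exon 10. The 1302 bases of the CBLL1 region held 0.

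The 10 genes had 56 peaks in all, 16 in Fs and 40 in Fts. By sample, there were 7, 4 and 5 peaks in Fs1, Fs2 and Fs3 and 12, 15 and 13 peaks in Fts1, Fts2 and Fts3. The groups did not overlap, with a mean of 5.33 ± 1.53 (SD, n = 3) in Fs and 13.3 ± 1.53 (SD, n = 3) in Fts. The difference was 8 peaks, with an SD of 3 over the pairs of equal number, and was positive in 3 of 3 pairs. Per 10000 peaks of the list, the genes had 8.73, 3.85 and 4.84 peaks in Fs and 12.4, 13.03 and 10.8 peaks in Fts, so the difference was also present after scaling by list size. The exonic bases covered by these peaks were 3170, 1771 and 2229 in Fs and 4572, 7699 and 7328 in Fts. No p-value is given for this sum, since the genes were listed with results of these data known.

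Most of the difference came from VIRMA and ZC3H13, which are both regulatory subunits of the writer complex. Of the 10 genes, 2 had more peaks in every Fts sample than in any Fs sample, and among all 11701 genes with a peak this held for 8.98%. None of the 10 had fewer peaks in every Fts sample, which held for 5.36% of all genes. The mean number of peaks was higher in Fts for 7 genes, higher in Fs for 2 (CBLL1 and RBM15) and equal for WTAP. Over all genes with a peak, 44.6% had the higher mean in Fts. The median difference was 0.333 peaks over the 10 genes and 0 over all genes.

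**Figure D1:**
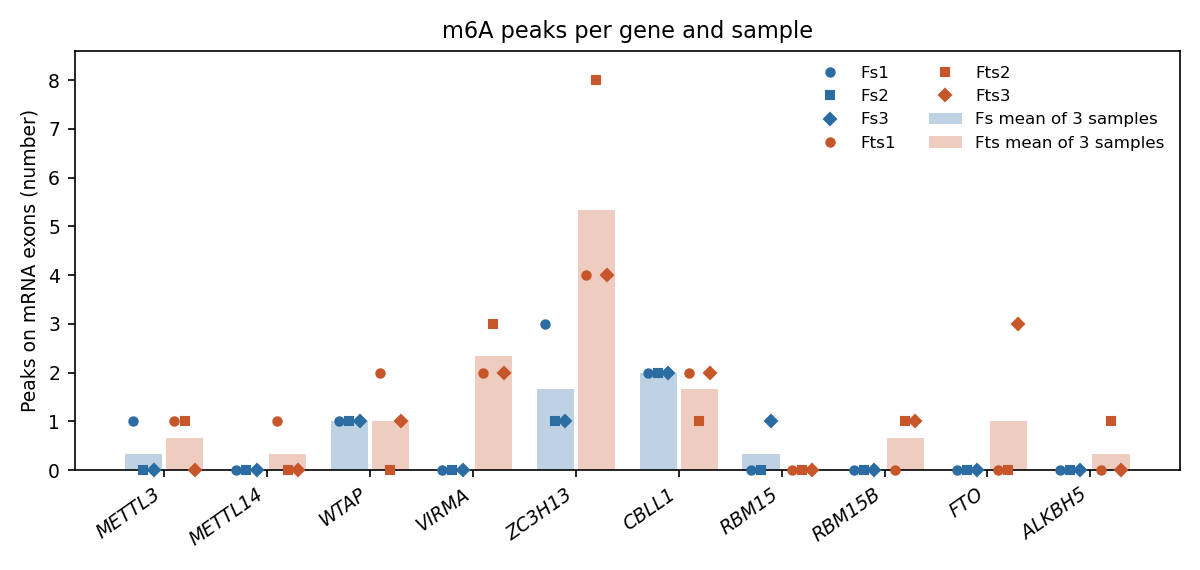
Number of m6A peaks on the mRNA exons of each gene, for the 3 Fs and the 3 Fts IP samples. Points are samples, bars are means of 3 samples. VIRMA has 0 peaks in every Fs sample and 2 or 3 in every Fts sample, and ZC3H13 has 1 to 3 peaks in Fs and 4 to 8 in Fts.

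The catalytic pair had few peaks. METTL3 (chr7:77661945-77679459, plus strand, 11 exons) had a peak over the whole of exon 5, in coding sequence at chr7:77675753-77675969, with a score of 3.51 in Fs1, 15.59 in Fts1 and 6.13 in Fts2. In Fs2, Fs3 and Fts3 no METTL3 peak was listed, so the presence of this peak did not separate the groups. METTL14 (chr8:105019539-105053603, minus strand, 11 exons) had 1 peak in 1 sample, in exon 11 at chr8:105020635-105021037, with a score of 5.89 in Fts1. The METTL14 peak exceeded 24.0% of the peaks of Fts1, and the METTL3 peaks exceeded 5.50%, 55.2% and 23.5% of the peaks of Fs1, Fts1 and Fts2.

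WTAP (chr1:7622544-7651732, minus strand, 8 exons), the subunit that localises the catalytic pair, had 1 peak per sample in Fs, whereas Fts1, Fts2 and Fts3 had 2, 0 and 1. Its recurrent peak covered exon 4, a coding exon of 59 bases at chr1:7636589-7636647. Its scores were 5.35 in Fs1, 39.71 in Fs3, 5.44 in Fts1 and 19.04 in Fts3, which overlap between the groups. The peak of Fs2, with a score of 4.3, lay elsewhere, on an exon that is not part of the longest coding transcript.

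VIRMA (chr4:42162424-42236310, plus strand, 24 exons) had 0, 0 and 0 peaks in Fs1, Fs2 and Fs3 and 2, 3 and 2 peaks in Fts1, Fts2 and Fts3. The difference was 2.33 peaks (SD over pairs 0.577, n = 3 pairs). The exact sign-flip test over the 3 pairs gave a two-sided p of 0.25, and the exact permutation test of 3 against 3 samples gave 0.1. Both are the smallest p-values that the designs allow, so no difference of a single gene could pass 0.05. Any gene whose groups do not overlap gets these same values, so they add no support to the lack of overlap. A difference of this size or more was found for 478 of the 11701 genes with a peak, or 4.09%.

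The constant part of the VIRMA signal was exon 7. A peak over exactly this coding exon had scores of 313.04, 246.49 and 217.69 in Fts1, Fts2 and Fts3, and no peak was listed there in any Fs sample. These scores exceeded 95.5%, 91.7% and 93.7% of the peaks in their lists. The other VIRMA peaks were each seen in 1 sample. Exon 9 had a score of 3.35 in Fts1, exon 6 had 7.9 and exon 16 had 35.97 in Fts2, and exon 8 had 7.64 in Fts3. All lay in coding sequence.

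ZC3H13 (chr11:21298855-21387557, plus strand, 20 exons), the nuclear anchor of the complex, had 3, 1 and 1 peaks in Fs and 4, 8 and 4 in Fts, the most of the 10 genes in each Fts sample. The lowest Fts sample was above the highest Fs sample. The difference was 3.67 peaks (SD over pairs 3.06, n = 3 pairs). Its two-sided p-values, 0.25 in the exact sign-flip test and 0.1 in the exact permutation test, were again fixed by the lack of overlap. Without the samples numbered 2 the difference was 2 peaks. A difference at least as large as in all samples was found for 160 genes, or 1.37% of those with a peak. In Fts2, 48 of the 6130 genes with a peak had 8 peaks or more. The Fts2 peaks on exons 8, 9, 10 and 11 met at exon junctions, so the 8 need not be separate peaks. With peaks joined across exon junctions, the ZC3H13 difference was 2.33 peaks.

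The ZC3H13 peaks that recurred in Fts lay on exons 10, 11, 13 and 15, in coding sequence, and no sample had a peak on exon 12 or 14. Exon 10 (chr11:21354283-21354747) had scores of 5.89 in Fs1 and 4.68 in Fs3, no peak in Fs2, and scores of 53.1, 128.48 and 115 in Fts1, Fts2 and Fts3. Exon 11 had scores of 5.63 in Fs1 and 11.99 in Fs2, no peak in Fs3, and scores of 27.48, 31 and 15.22 in the Fts samples. For both exons every Fts score was above every Fs score, and the gap was narrow for exon 11.

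Exon 13 of ZC3H13 had no peak in Fs and scores of 5.82, 410.94 and 465.24 in Fts1, Fts2 and Fts3. The last of these was the highest score of any peak on the 10 genes. Fts1 stood apart from the other Fts samples in this exon, with a score close to those that other exons had in Fs. Exon 15, the longest coding exon of the gene at 1170 bases, had scores of 41.68 in Fts2 and 20.98 in Fts3 only. Exon 16 had a score of 11.84 in Fts1. In Fts2 weak peaks were also listed on exons 7, 8 and 9, with scores of 8.73, 4.18 and 5.3. Another, centred in the 3′UTR, had a score of 7.04. The remaining Fs peak was in the first exon, in Fs1, with a score of 4.2.

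**Figure D2:**
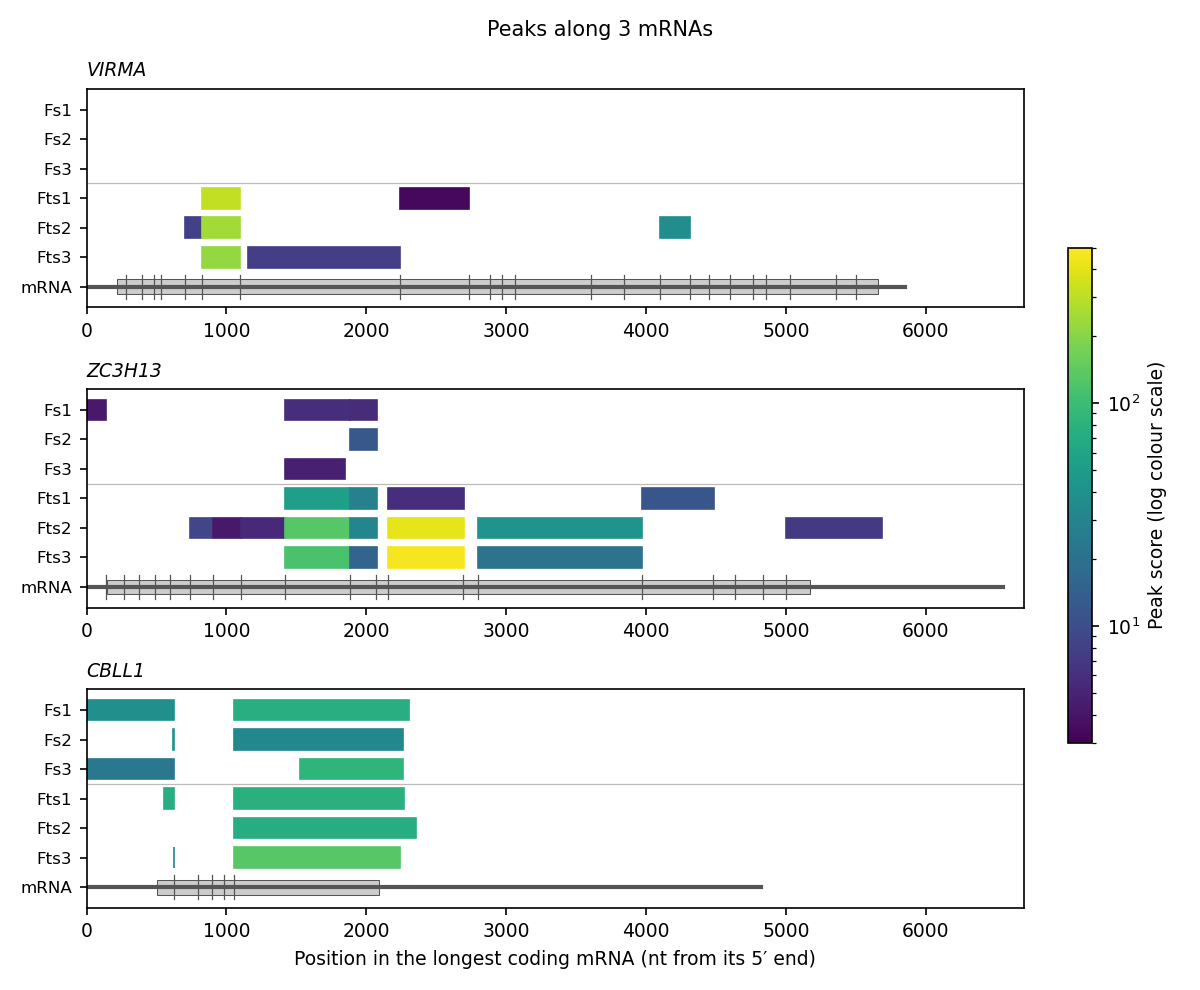
Position of every peak on the longest coding mRNA of VIRMA, ZC3H13 and CBLL1, by sample, coloured by score on a log scale. In the lowest row of each map the grey box is the coding sequence and the ticks are exon ends. Most blocks begin and end at the ticks, and the bright blocks of VIRMA exon 7 and ZC3H13 exon 13 appear in Fts samples, whereas the CBLL1 block at the start of exon 6 or within it appears in all 6.

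CBLL1 (chr9:107456261-107474615, plus strand, 6 exons), the RING finger subunit, was the gene with the most even pattern. It had 2, 2 and 2 peaks in Fs and 2, 1 and 2 peaks in Fts. Exon 6 held the only region with a peak in all 6 samples. The peaks ran from the start of the exon, or in Fs3 from within it, into the 3′UTR. The scores were 74.72, 32.53 and 83.43 in Fs1, Fs2 and Fs3 and 77.74, 72.74 and 129.66 in Fts1, Fts2 and Fts3. They overlapped between the groups. Its other region lay on exon 1 (chr9:107456622-107457270), with scores of 38.13, 40.03 and 23.38 in Fs, 72.87 in Fts1 and 28.04 in Fts3. The Fs1 and Fs3 peaks covered all of exon 1 and were centred in the 5′UTR. The deposited intervals there differed widely in length, with 649, 11 and 649 bases in Fs1, Fs2 and Fs3, 76 bases in Fts1 and 4 bases in Fts3, and all of them ended at the end of the exon.

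RBM15 and RBM15B, the RNA-binding adaptors, had few peaks. RBM15 (chr4:109767464-109791555, minus strand, 3 exons) had a single peak, in the 3′UTR of Fs3, with a score of 6.5. RBM15B (chr13:33664387-33671047, plus strand, 1 exon) had peaks in Fts2, with a score of 82.36, and in Fts3, with a score of 6.52, both in coding sequence between 33664867 and 33666897. In the Fs samples and in Fts1 no RBM15B peak was listed.

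The demethylases had no peak in any Fs sample. FTO (chr6:31177112-31564674, minus strand, 9 exons) had 3 peaks, all in Fts3. They lay in exon 7, with a score of 14.99, in exon 6, with a score of 6.2, and at the start codon, with a score of 3.47. ALKBH5 (chr12:60507662-60530239, minus strand, 4 exons) had 1 peak, in Fts2, in the coding part of exon 1 at chr12:60529099-60529534, with a score of 20.63. Together the demethylases had 0, 1 and 3 peaks in Fts1, Fts2 and Fts3, which overlaps with the 0 of the Fs samples. The FTO peaks thus rest on 1 library, and without the samples numbered 3 the FTO difference was 0.

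**Figure D3:**
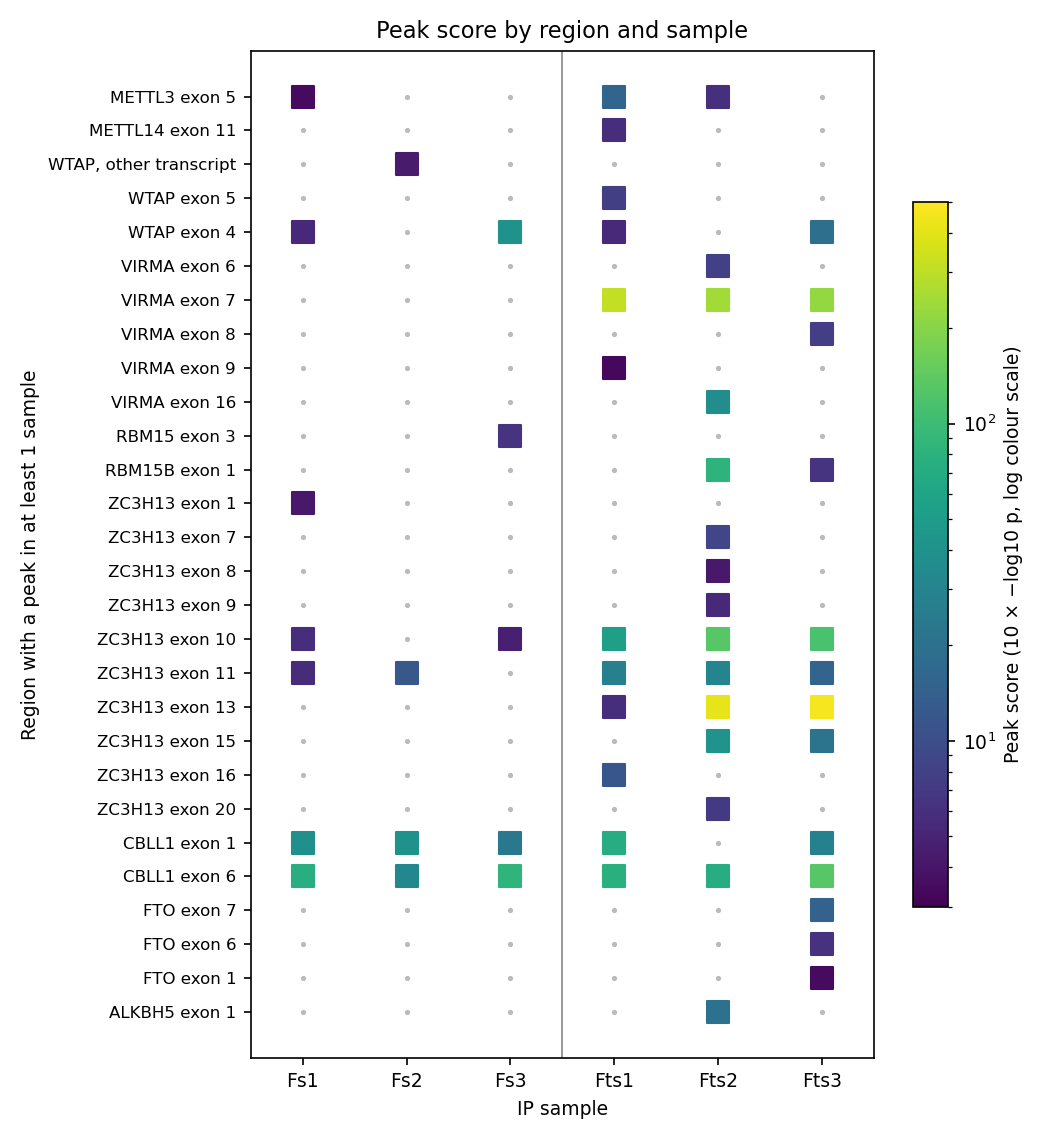
Score of the peak in each of the 28 regions (rows, named by gene and exon of the longest coding transcript) in each of the 6 IP samples (columns), on a log colour scale. Small grey points mark samples without a listed peak. In 19 regions at least 1 of the 3 Fts samples, on the right, has a peak and no Fs sample, on the left, has one. In 3 regions the reverse holds.

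Merged over the 6 samples, the 56 peaks formed 28 regions. Of these, 6 had a peak in both groups, 19 had peaks in Fts only and 3 in Fs only. Over all genes, 6022 of 26220 regions had a peak in both groups. Regions of Fts only and of Fs only were not counted over all genes, so the 19 and 3 have no share to be set beside. A single sample gave the peak in 18 regions, or 64.3%, against 47.6% of the 26220 regions over all genes. Every Fts score was above every Fs score in 4 of the 28 regions, VIRMA exon 7 and ZC3H13 exons 10, 11 and 13. Over all genes this held for 8.86% of regions. The reverse order held for 0 of the 28 regions and for 6.32% of all regions.

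The median score was 9.245 over the 16 Fs peaks and 19.835 over the 40 Fts peaks. The whole lists also had higher medians in Fts, 12.935, 15.945 and 13.41, than in Fs, 11.93, 11.55 and 10.73. A score of at least 50 was reached by 2 peaks in Fs, both in CBLL1 exon 6, and by 13 peaks in Fts, which is 12.5% and 32.5% of the peaks of these genes. Of the whole lists, 15.4% to 17.9% reached it in Fs and 20.5% to 27.2% in Fts. Scores under 10 made up 8 of the Fs and 15 of the Fts peaks. Peaks of 1 gene are not independent, and no test was made on these numbers.

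Peaks of these genes lay mainly in coding sequence. By the midpoint of the peak, 11 of the 16 Fs peaks and 37 of the 40 Fts peaks were in the coding sequence, more than 100 nucleotides from the start and stop codons. The share was 71.4%, 75% and 60% in Fs1, Fs2 and Fs3 and 91.7%, 93.3% and 92.3% in Fts1, Fts2 and Fts3. Over the peaks of all genes it was 64.9% to 66.1% in Fs and 70.5% to 71.5% in Fts. With codon classes of 200 nt, the mean share of these genes over the 6 samples was 62.1%. That lay within the range of all genes under the same rule, 56.6% to 63.6%. By midpoint, none of the 56 peaks was centred at a stop codon, 2 lay at a start codon, 3 in a 5′UTR and 2 in a 3′UTR. Another 1 lay outside the longest coding transcript. This depends on the midpoint rule, since some peaks with midpoints elsewhere ran across the stop codon. These were the CBLL1 exon 6 peaks in all 6 samples, the METTL14 peak and the ZC3H13 peak centred in the 3′UTR.

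The peaks followed exons. Of the 56 peaks, 35 matched an annotated exon from end to end and 52 began or ended at an exon end. A whole exon was covered by 7 of the Fs and 28 of the Fts peaks. Over all genes, whole exons made up 38.8% to 40.1% of peaks for Fs and 50.3% to 53.6% for Fts. Peaks that began or ended at an exon end made up 79.1% to 80.1% for Fs and 84.7% to 87.0% for Fts. The ends of the deposited intervals thus largely follow the annotation, and the intervals do not place methylation at a base.

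GGACT was present in 22 of the 56 peaks, of which 6 were Fs and 16 were Fts peaks. The mean share over the 6 samples was 38.0% ± 6.55 (SD, n = 6 samples), beside 32.4% of peaks of all genes of the same length. Among the 15 peaks with a score of at least 50, 6 held GGACT, or 40%, beside 46.4% of peaks of the same length. None of the ZC3H13 exon 11 or CBLL1 exon 6 peaks held GGACT. For peaks of the length of the CBLL1 region, 72.1% held at least 1, and for the length of ZC3H13 exon 11, 17.2%. A search for 5 letters on the transcript strand describes the interval only, and methylation of other forms of the consensus is not addressed by it.

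The list of sites that differ between Fts and Fs, which carries a score and no direction or sample values, held a site on 3 of the 10 genes. Among the 11991 genes with a peak or a site, 13.2% had a site. The ZC3H13 site was exon 15, at chr11:21371179-21372348, the interval that had peaks in Fts2 and Fts3. The METTL14 site was chr8:105019962-105021037, in exon 11 and mostly in the 3′UTR, which takes in the Fts1 peak. The RBM15 site was chr4:109783802-109784760, in coding sequence, where no sample had a peak. The VIRMA exon 7 and ZC3H13 exon 13 peaks, which were strong in Fts and not listed in Fs, were not in the site list.

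METTL3, METTL14, FTO and ALKBH5 mRNAs were also assayed by RT-qPCR, and the primers show where that assay and the m6A peaks lie on the same mRNA. They are printed in lower case, 5′ to 3′.
METTL3 forward: ccctatgggaccctgacaga
METTL3 reverse: ctacccgttcgtaaccccag
METTL14 forward: gcatcctacttcagtgcccc
METTL14 reverse: atcgatttctttcccgccca
FTO forward: tttggcgataccccttcacc
FTO reverse: tgtaatccaaggctcccgtc
ALKBH5 forward: cgcagagctgtcatcatcct
ALKBH5 reverse: tgtttcccgacagacgatcc

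The METTL3 amplicon spanned exons 6 to 8, 97 nucleotides from the nearest peak. The METTL14 amplicon of 172 nucleotides lay in exon 11 and overlapped the Fts1 peak. The FTO amplicon, whose reverse primer differed from the genome by 1 base, spanned exons 4 to 6 and overlapped the Fts3 peak in exon 6. The ALKBH5 amplicon lay 390 nucleotides from the peak of that gene.

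Other genes of the pathway gave a point of reference. Of 29 further genes, 23 had a peak, with 16, 21 and 18 peaks in Fs and 30, 25 and 26 in Fts. For 3 of the 23 genes with a peak every Fts sample had more peaks than any Fs sample. For 0 every Fts sample had fewer. Among all genes with a peak these shares were 8.98% and 5.36%, as given above. The 3 genes encode readers of m6A. YTHDC1, the nuclear YTH reader, had 2, 3 and 2 peaks in Fs and 5, 7 and 7 in Fts. HNRNPC, which binds RNA opened by m6A, had 1, 1 and 1 peaks in Fs and 3, 2 and 2 in Fts. YTHDF3, a cytoplasmic reader, had 0 peaks in every Fs sample and 1 in every Fts sample. The 13 readers together had 9, 9 and 9 peaks in Fs and 19, 17 and 18 in Fts. The 6 genes of other RNA methyltransferases and partners, such as METTL16, had 2, 5 and 4 peaks in Fs and 4, 3 and 2 in Fts, without such a shift. The 3 genes of methyl donor supply had 2, 3 and 2 peaks in Fs and 2, 1 and 2 in Fts, and the 7 other AlkB homologues had 3, 4 and 3 in Fs and 5, 4 and 4 in Fts.

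Peaks on markers of the cells that semen can hold were counted in the same way. In the list of 12 spermatid and sperm genes, 6 had a peak, with 3 to 4 peaks in Fs and 2 to 5 in Fts. SPACA1 of the acrosomal membrane had 1 peak in all 6 samples, and ACR, the acrosomal protease, had 2 in each Fs sample and 0 in each Fts sample. ODF2 went the other way, with 0 in each Fs sample and 3, 3 and 0 in Fts. PRM2 had 1 peak, in Fts2, TNP2 had 1, in Fts3, and CATSPER1 had 1, in Fs2. PRM1, TNP1, ODF1, AKAP4, SMCP and TSSK6 had none, and since a peak needs m6A as well as RNA this does not show that their mRNAs were missing. The 4 epithelial markers had 0 to 2 peaks in Fs and 4 to 5 in Fts. Of these, KRT8 had 0 peaks in Fs and 3, 4 and 2 in Fts, and KRT18 had 0, 0 and 1 in Fs and 2, 1 and 1 in Fts. CDH1 had 0, 1 and 1 in Fs and 0, 0 and 1 in Fts, and EPCAM had none. The 4 leukocyte markers had 0 to 2 peaks in Fs and 1 to 2 in Fts, with none on CD14. The 4 stromal and muscle markers had 2 to 3 peaks in Fs and 1 to 3 in Fts, with none on ACTA2, and the 4 markers of testis somatic cells had 0 to 2 in Fs and 1 to 2 in Fts, with none on AMH. COL1A2, with 0 peaks in Fs and 3, 1 and 1 in Fts, and SOX9, with 0 in Fs and 1 in each Fts sample, also had more peaks in every Fts sample, and VIM, with 1 in each Fs sample and 0 in Fts, had fewer. COL1A1 had 2, 1 and 2 peaks in Fs and 0, 0 and 1 in Fts, and INSL3 had 0, 1 and 2 in Fs and 0 in each Fts sample. The KRT8, COL1A2 and SOX9 peaks were thus higher in the same group as the VIRMA and ZC3H13 peaks. Of the other somatic markers, KRT18, CD3E, CD68 and CYP17A1 had the higher mean in Fts, and VIM, COL1A1, INSL3, CDH1 and PTPRC the lower mean. The part of these markers in the VIRMA and ZC3H13 difference was not tested.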

How the data were processed

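MeRIP-seq data of 6 IP samples, 3 of fresh and 3 of frozen-thawed boar sperm, were used as deposited peak lists, with 1 list of sites that differ between the groups. Per the study's methods and labels, the authors trimmed reads with cutadapt (v1.9.3), aligned them with Hisat2 to susScr11, ran MACS on each IP sample with its own input as control, found differing sites with diffReps and kept those on mRNAs. The deposited value of each peak is its MACS score, made by the authors as 10 × −log10 p. Reads were not analysed here, and read depth is not part of the lists, so no counting interval could be given. The read totals of the study's supplement are per library and not per gene, and peak numbers were not adjusted for them.

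Peaks were placed on RefSeq mRNAs of Sscrofa11.1 (Annotation Release 106), the same assembly, by at least 1 bp of a same-strand exon. VIRMA is listed there as KIAA1429. Features, exon numbers and mRNA positions refer to the longest coding transcript of a gene, with start and stop codon classes of 100 nt to each side. Overlapping peaks of a gene were merged into regions over the 6 samples. Peaks of the same length were those within 10% of a peak's length, in the same sample. Peak numbers were compared by two-sided exact sign-flip tests over the pairs of equal number and by exact permutation of 3 against 3 samples. With 3 samples a group neither test can reach 0.05.

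Genes and lists were chosen with earlier results of these data known. All 10 genes were named. Regions were described if they had a peak in all samples of a group and none of the other, in all 6 samples or in the site list, or held the highest score of a gene. Other pathway genes were named if the groups did not overlap. Remaining peaks and markers were named after their values were seen. Alternatives covered the minimum score, the overlap rule, joined peaks, scaling, codon classes, the motif and the omission of each number. Counting code was tested on simulated data. Sequences of regions in coding sequence with peaks in at least 5 samples were printed, and some other sequences are not reported here. Primer sequences came from the supplement of the study. Python 3.11.15, numpy 2.4.6, scipy 1.17.1 and matplotlib 3.10.9 were used.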

Additional observations from a re-analysis of the deposited data

How the results depend on the processing

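The difference of 8 peaks over the 10 genes was positive under each alternative. It was 4.33 peaks with a minimum score of 20 and 3.67 with a minimum score of 50, since fewer peaks were left. Peaks joined across exon junctions gave a difference of 5.67. When the samples of 1 number were left out of both groups, the difference lay between 6.5 and 9.5. VIRMA and ZC3H13 had no overlap between the groups in each of these settings. Where samples were left out this was fixed in advance and tests nothing, since groups without overlap cannot overlap after samples are removed. The same holds there for the positive sign of the difference over the 10 genes. RBM15B joined VIRMA and ZC3H13 when number 1 was left out, so that the count ranged from 2 to 3. For single genes, 60 of 80 values kept the sign of the difference, or stayed at 0. Another 15 fell to 0, all in genes with a difference of 1 peak or less (METTL3, METTL14, RBM15, CBLL1, FTO and ALKBH5), and 4 values of WTAP, which was at 0, left 0 in either direction. CBLL1 had the opposite sign with a minimum score of 50, a difference of 0.667 peaks in favour of Fts. No test could pass the threshold in any setting.

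The share of peaks in coding sequence, a mean of 80.6% over the 6 samples, was 62.1% with codon classes of 200 nt and 95% with a minimum score of 50, where 5 samples had a peak. It ranged from 78.9% to 82.9% without 1 number. Over the peaks of all genes, codon classes of 200 nt gave 56.6% to 58.1% in Fs and 62.4% to 63.6% in Fts. With a minimum score of 20, 2 of 11 regions were shared by the groups, in place of 6 of 28. GGACN, which any base may end, was present in 62.3% of the peaks beside 67.3% of peaks of the same length, and GGACT had a mean share of 27% over the 5 samples with a score of at least 50, of which Fs1 and Fs3 hold 1 such peak each, without GGACT. Pooled, 6 of those 15 peaks, or 40%, held it. The cause of these moves was not tested.

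Without the replicate block the difference was again 8 peaks, which is fixed by arithmetic and tests nothing. Over 11701 genes, deviations from the group means correlated at 0.010, -0.014 and 0.013 between samples of equal number, and at -0.035 to 0.025 between other samples. Peak numbers per gene are small, so these correlations cannot decide whether an equal number stands for the same boar. The pairing used for the paired p-values rests on the study's stated design. Peak lists without read depth limit what the absence of a peak can show.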

Other observations

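VIRMA and ZC3H13 have the longest coding sequences of the 10 genes, 5439 and 5022 nucleotides. Among the 701 genes with a peak and a coding sequence of at least 5000 nucleotides, 12.0% had more peaks in every Fts sample than in any Fs sample, against 8.79% of the 11000 genes with a shorter coding sequence.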
